A study of Saccharomyces cerevisiae with 2 samples.

Results

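The stretch of the 5′ external transcribed spacer (5′ ETS) from nucleotide 281 to site A1 was examined in the coverage of 2 libraries, Pol5-HTP and WT. Its members were taken by position alone: they are the 420 nucleotides numbered 281 to 700 from the first nucleotide of the 5′ ETS, out of 6858 nucleotides of the 35S pre-rRNA, and 1 further listed position that repeated the first nucleotide of the 18S rRNA was left out. The WT library came from BY4741 yeast without a tag. The Pol5-HTP library came from BY4741 cells in which the genomic copy of POL5 carries a C-terminal His-TEV-Protein A (HTP) tag, so that the tagged protein is made from its own locus. Both strains were grown in exponential phase and crosslinked with UV light at 254 nm. The control is titled WT-HTP, but its genotype label reads wild type and it was taken as untagged. The question was where along this RNA the tagged protein left footprints that the untagged control did not.

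In crosslinking and analysis of cDNA (CRAC), RNA bound covalently to a tagged protein is trimmed with RNases, purified under denaturing conditions, converted to cDNA and sequenced, so that read depth marks the RNA near the protein. Pol5 is an essential nucleolar protein of budding yeast that takes part in ribosome synthesis. The 5′ ETS is the leader of the 35S pre-rRNA and the scaffold on which the small subunit processome forms. The U3 snoRNA docks by base pairing of its 3′ hinge and of its 5′ hinge with separate stretches of the 5′ ETS, and also pairs with the 18S rRNA. Cleavage at A0 and then at A1 removes the spacer from the 18S rRNA, and the fragment released by cleavage at A0 is degraded by the nuclear exosome.

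The sequences that carry the main features are given 5′ to 3′ as DNA letters (T stands for U), read from the deposited coverage. The first pair shows the stretches that pair with U3, in capitals, at nucleotides 281 to 291 (3′ hinge) and 470 to 479 (5′ hinge). These limits are known positions, and the pairing itself was not checked here.
3′ hinge pairing, nucleotides 281 to 306: GGATTTGGTGGattactagctaatag
5′ hinge pairing, nucleotides 460 to 499: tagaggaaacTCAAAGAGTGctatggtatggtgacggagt
The next 3 are the Pol5-HTP sites that lie wholly in the region, with capitals at the nucleotides that reach 50% or more of the summit.
Site 397 to 438: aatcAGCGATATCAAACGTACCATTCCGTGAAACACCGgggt
Site 472 to 514: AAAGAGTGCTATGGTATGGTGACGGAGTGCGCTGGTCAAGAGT
Site 619 to 657: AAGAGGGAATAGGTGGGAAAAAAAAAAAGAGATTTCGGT
The last pair shows the cleavage sites, with capitals from the first nucleotide after the cut, which is nucleotide 610 for A0 and nucleotide 1 of the 18S rRNA for A1.
A0, nucleotides 600 to 629: tcaataagtaTCTTCTAGCAAGAGGGAATA
A1, nucleotides 671 to 700 and 18S 1 to 20: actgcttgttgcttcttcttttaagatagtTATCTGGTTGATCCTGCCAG

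Coverage is given in hits per 1000000 mapped reads (hits), the scale of the deposited values. A single read was worth 2.16 hits in the WT library and 0.570 hits in the Pol5-HTP library, from which totals of 463950 and 1755048 reads follow, and a floor of 3 reads was 6.47 hits in WT and 1.71 hits in Pol5-HTP. The deposited counts by RNA class sum to other totals, 1092199 and 1073688 reads, so the true ratio of the 2 depths is not settled. With the class totals each ratio to WT would be 3.85 times as high, whereas shares within a library do not depend on the scaling. There was 1 library per condition, so no difference below has a replicate check and no p-value is given. Intervals (95%) cover counting error only, were set from the smallest number of reads that the coverage requires, and hold for these libraries rather than for the strains.

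Pol5-HTP coverage of this region was well above WT almost throughout. The mean was 237 hits in WT and 1709 hits in Pol5-HTP, a log2 ratio of 2.80 (2.72 to 2.88) after 10 hits were added to both means. Single nucleotides ranged from 0 to 920 hits in WT and from 42.2 to 7409 hits in Pol5-HTP. At 391 of the 420 nucleotides (93.1%) Pol5-HTP was at least 2 times WT, whereas 36.0% of all nucleotides of the 35S pre-rRNA passed this limit. That background holds on the deposited scale: with the class totals 99.5% of the region and 69.7% of the 35S pre-rRNA passed, and with the median ratio of the 18S rRNA set to 1, 94.8% and 47.3%. It was at most 1 in 2 of WT at 0 nucleotides, and the remaining 29 nucleotides formed 1 run.

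An excess of this kind was also found in the rest of the 5′ ETS and in the internal spacers. In the first 280 nucleotides of the 5′ ETS the means were 323 hits in WT and 3317 hits in Pol5-HTP, a log2 ratio of 3.32 (3.24 to 3.40), and 280 of 280 nucleotides passed the limit. In ITS1 and ITS2, the spacers on either side of the 5.8S rRNA, 99.4% and 96.6% of the nucleotides did so. In the 18S rRNA, the log2 ratio was -0.93 and 18.7% of the nucleotides passed on the deposited scale, but its direction turned to 0.99 with the class totals. The 3′ ETS was nearly bare, at 0 reads on 209 of its 211 nucleotides in WT and on 184 in Pol5-HTP, and gave no ratio of use here. The region from 281 to A1 makes up 60% of the length of the 5′ ETS and held 52.5% (50.4 to 54.5) of its WT hits but 43.6% (43.2 to 44.0) of its Pol5-HTP hits. Within the 5′ ETS, the Pol5-HTP hits therefore lay further to the 5′ side than the WT hits. Of all hits on the 35S pre-rRNA, 6.12% of its length, the region took 1.36% (1.29 to 1.44) in WT and 8.85% (8.75 to 8.95) in Pol5-HTP.

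**Figure D1:**
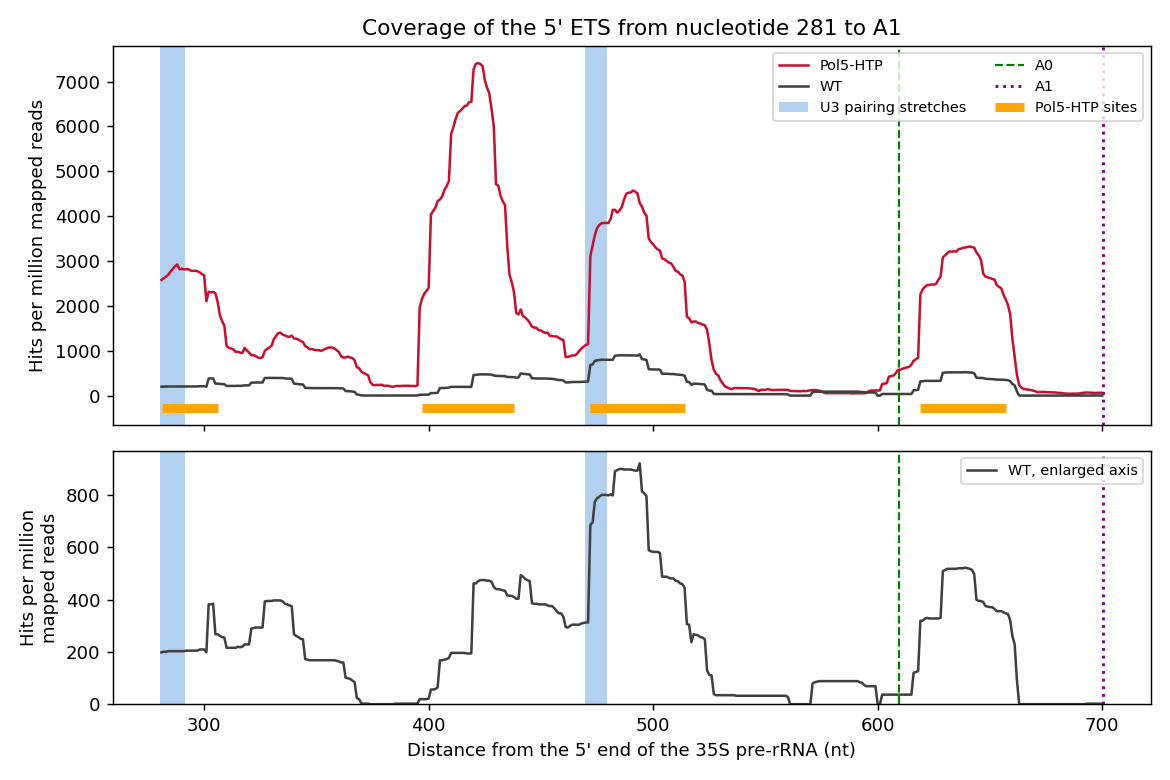
Hits per 1000000 mapped reads at each nucleotide from 281 to A1, for Pol5-HTP (red) and WT (dark grey) on a common axis above and for WT alone on an enlarged axis below. Blue bands mark the stretches that pair with U3, the green and purple lines A0 and A1, and orange bars the Pol5-HTP sites; Pol5-HTP peaks at 422, 491 and 641, and WT is highest at 494.

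Sites were stretches whose nucleotides all reached 10% of the library's own maximum over the 35S pre-rRNA, with gaps of up to 10 nt bridged. The threshold was 2057 hits in Pol5-HTP and 1960 hits in WT. In Pol5-HTP, 4 sites reached into the region, 3 of them wholly inside it, and 0 WT sites did. The WT threshold lay above the highest WT value of the region, 920 hits, so no WT site could be called here. The count of WT sites therefore does not show an absence of WT peaks. All 4 had a mean at least 2 times WT, as had 66.7% (12 of 18) of the Pol5-HTP sites on the 35S pre-rRNA. The sites covered 150 nucleotides (35.7% of the region). Since Pol5-HTP coverage defined them, its level inside them is high by construction. The WT library was not used to define them, and it too was higher inside, with a mean of 428 hits against 131 hits outside, so that 64.4% (61.6 to 67.2) of its hits fell in these sites. Outside the sites the Pol5-HTP mean was 619 hits and the log2 ratio was still 2.15 (2.05 to 2.26).

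The highest site lay between the U3 pairing stretches, at nucleotides 397 to 438. Its summit at nucleotide 422 held 7409 hits in Pol5-HTP (13003 reads, 12781 to 13229) and 470 hits in WT (218 reads, 190 to 249). This was the highest Pol5-HTP value of the region and 36.0% of the highest value on the 35S pre-rRNA, and it lay 279 nt before the first nucleotide of the 18S rRNA. Over the 42 nt of the site the means were 277 hits in WT and 5114 hits in Pol5-HTP, a log2 ratio of 4.16 (3.97 to 4.34), or 17.8-fold. The site held 11.7% (9.96 to 13.7) of the WT hits of the region and 29.9% (29.4 to 30.4) of the Pol5-HTP hits. Here the 2 libraries differed in where their reads lay, whatever the scaling.

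The first nucleotides of this site, 397 to 404, held only 9 to 30 reads in WT. At nucleotide 396, just before the site, read depth went from 1 to 9 reads in WT and from 398 to 3452 reads in Pol5-HTP. At nucleotide 401 it went from 10 to 26 reads in WT and from 4223 to 7083 in Pol5-HTP, and at 410 from 82 to 91 and from 8392 to 10235. WT also rose at 405, from 30 to 78 reads, where Pol5-HTP went from 7613 to 7668. The main WT rise came further in, at nucleotide 420, from 90 to 214 reads, where Pol5-HTP was already at 11494 reads and rose to 12765. The fall on the 3′ side also differed. Pol5-HTP lost 2258 reads at nucleotide 430, 1611 at 435 and 1114 at 436, against 4, 8 and 1 in WT, and WT stayed at 192 reads at nucleotide 436. WT had a separate maximum of 494 hits (229 reads) just past the site, at nucleotide 441, where Pol5-HTP had fallen to 1919 hits.

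The site at nucleotides 472 to 514 overlapped the 5′ hinge pairing stretch of U3. It began at the third nucleotide of the pairing stretch, and its summit at nucleotide 491 lay 12 nt past the end of that stretch. The summit held 4572 hits in Pol5-HTP (8024 reads) and 894 hits in WT (415 reads). Over the site the means were 3654 hits and 707 hits, a log2 ratio of 2.35 (2.21 to 2.49), or 5.11-fold. Unlike in Pol5-HTP, it was the highest stretch of the region in WT, with a maximum of 920 hits (427 reads) at nucleotide 494. The site held 30.5% (27.9 to 33.3) of the WT hits and 21.9% (21.4 to 22.3) of the Pol5-HTP hits of the region, so in shares it stood lower in Pol5-HTP than in WT.

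Both libraries had their largest rise of read depth at the same nucleotide, 472, inside the pairing stretch. At 470, its first nucleotide, there were 145 reads in WT and 1980 in Pol5-HTP, and at 471 there were 145 and 2013. At 472 there were 318 and 5460. The rise of 173 reads in WT was 16.7% of all rises of the region, and the rise of 3447 reads in Pol5-HTP was 12.2%. The pairing stretch as a whole had means of 676 hits in WT and 3137 hits in Pol5-HTP, a log2 ratio of 2.198 (2.05 to 2.35). On the 3′ side, both libraries fell at nucleotide 515, by 64 reads in WT and 1373 in Pol5-HTP, while the largest WT fall, of 96 reads, came at 498.

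The 3′ hinge pairing stretch, nucleotides 281 to 291, lay inside a Pol5-HTP site that began before the region. This site ran from nucleotide 237 to 306, with its summit at 259, and 26 nt of it counted here. In the pairing stretch WT was flat, from 198 to 203 hits, and Pol5-HTP ranged from 2578 to 2924 hits. The means of 202 and 2762 hits gave a log2 ratio of 3.71 (3.43 to 3.99), above that of the 5′ hinge stretch, with intervals that did not overlap. The pairing stretches thus ranked in opposite order of ratio and of level in both libraries, since the 5′ hinge stretch had the higher coverage in WT and in Pol5-HTP. In shares of hits, the 3′ hinge stretch held 2.23% in WT and 4.23% in Pol5-HTP, and the 5′ hinge stretch 6.78% and 4.37%. From 281 to 306 the log2 ratio was 3.47 (3.27 to 3.68), and Pol5-HTP fell at nucleotide 301 from 4704 to 3693 reads, next to a WT rise at 302 from 92 to 177 reads.

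The most 3′ site lay between the cleavage sites, at nucleotides 619 to 657. It began 9 nt after the first nucleotide that follows A0 and ended 43 nt before A1. Its summit at nucleotide 641 held 3322 hits in Pol5-HTP (5830 reads) and 517 hits in WT (240 reads), and WT peaked at 639 with 522 hits. The means over the site were 2823 and 415 hits, a log2 ratio of 2.74 (2.56 to 2.92), or 6.66-fold. Its share of the hits of the region was 16.3% (14.2 to 18.5) in WT and 15.3% (14.9 to 15.7) in Pol5-HTP, with overlapping intervals. In both libraries depth rose at nucleotide 619, from 59 to 148 reads in WT and from 1488 to 3958 in Pol5-HTP, and again at 629, from 153 to 236 and from 4652 to 5403. This site thus had a like outline in both libraries. Its sequence was 82.1% purines and 48.7% A, with the longest run of A of the region, 11 nt at nucleotides 636 to 646.

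**Figure D2:**
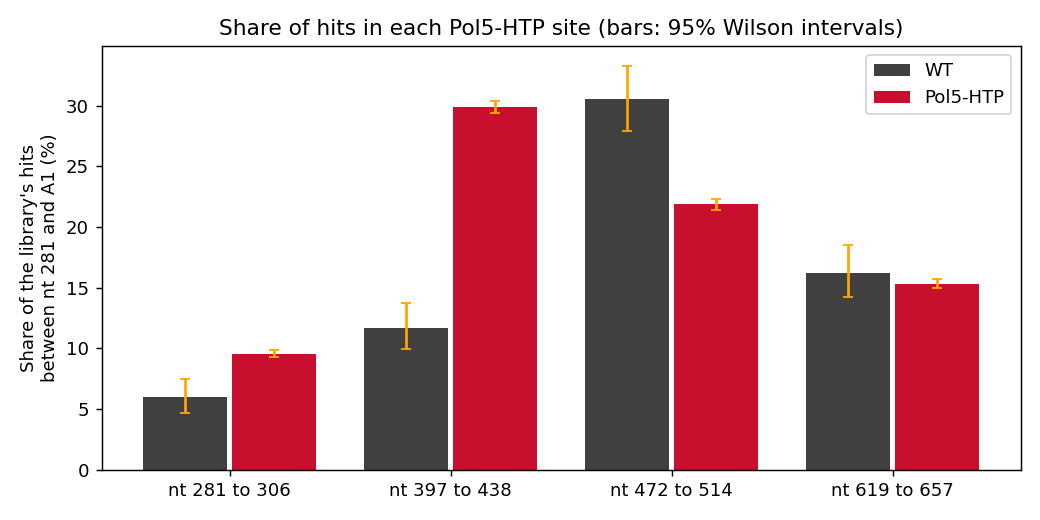
Share of each library's hits between nucleotide 281 and A1 (y axis, percent) that fell in each of the 4 Pol5-HTP sites (x axis), with 95% Wilson counting intervals; the first site is shown from nucleotide 281 on. The site at 397 to 438 took 11.7% of the WT hits and 29.9% of the Pol5-HTP hits, and the site at 472 to 514 took 30.5% and 21.9%.

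Between the sites, coverage of Pol5-HTP did not return to the WT level except next to A0. The means were 165 hits in WT and 849 hits in Pol5-HTP for nucleotides 307 to 396, 367 and 1330 hits for 439 to 471, 69.1 and 359 hits for 515 to 618, and 29.5 and 220 hits for 658 to 700. The log2 ratios were 2.29, 1.83, 2.22 and 2.55. The stretch from 439 to 471, directly before the 5′ hinge pairing, had the highest coverage of the 4 in both libraries. WT had a local maximum of 397 hits at nucleotide 331, within 307 to 396, where Pol5-HTP had 1256 hits.

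In windows of 20 nt the highest ratio with 10 hits added, 45.0-fold, was at nucleotides 381 to 400, where WT was under 3 reads at 15 of the 20 nucleotides, with a mean of 6.14 hits, and the Pol5-HTP mean was 717 hits. This fold rests on the added value: it was 101-fold with 1 hit added and 7.70-fold with 100, when the window at 401 to 420 was highest at 20.3-fold. With 10 added, the windows at 401 to 420 (175 and 5490 hits in WT and Pol5-HTP, 29.7-fold) and 281 to 300 (204 and 2764 hits, 13.0-fold) followed. The highest Pol5-HTP levels were in the windows at 401 to 420, 421 to 440 (4974 hits) and 481 to 500 (4153 hits). The lowest ratios with 10 added were at 581 to 600 (77.8 and 68.2 hits, 0.89-fold), 561 to 580 (43.4 and 94.4 hits, 1.95-fold) and 321 to 340 (355 and 1137 hits, 3.15-fold). The lowest Pol5-HTP level, 55.4 hits, was in the last window, 681 to 700, where WT had 0.862 hits. The windows at 561 to 580 and 581 to 600, on the 5′ side of A0, had the lowest ratios with 1 and with 100 hits added too.

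**Figure D3:**
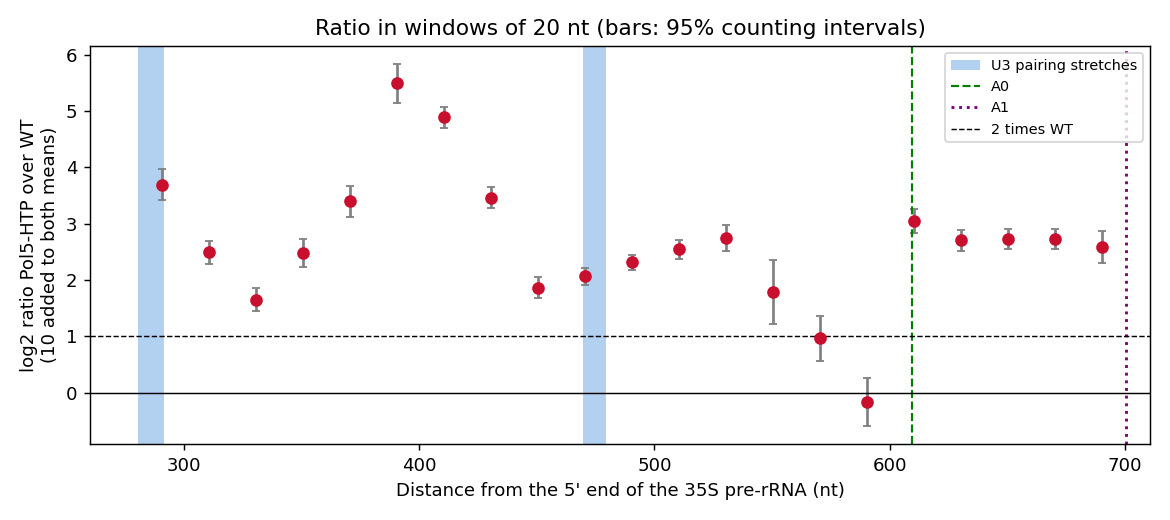
Log2 ratio of Pol5-HTP over WT (y axis, 10 hits added to both means) in 21 windows of 20 nt, placed at their midpoints (x axis), with 95% counting intervals. With this added value the window at 381 to 400 is highest, and the window at 581 to 600 is the only one near 0.

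The 29 nucleotides that missed the 2-fold limit were one run, 571 to 599, which ended 10 nt before A0. Its means were 83.6 hits in WT and 72.7 hits in Pol5-HTP, a log2 ratio of -0.18 (-0.60 to 0.24). In WT, depth was 0 reads at nucleotides 561 to 570, then 37 reads at 571 and at most 41 reads, and 0 reads again at 600 and 601. In Pol5-HTP there were 214 reads at most and 84 at least, with no such edges. WT exceeded Pol5-HTP at 20 of these nucleotides on the deposited scale. The direction turned when the class totals set the scale, with a log2 ratio of 1.501, and when the 18S rRNA did (its median ratio set to 1), with 0.49.

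Away from this run WT was often at the limit of its depth. It was under 3 reads at 76 nucleotides and at 0 reads at 52 nucleotides, in 4 runs, while Pol5-HTP was above its floor at all 420. The runs at 0 were nucleotides 374 to 384, with 196 to 301 hits in Pol5-HTP, 561 to 570 (96.3 to 118 hits), 600 to 601 (113 to 117 hits) and 664 to 692 (42.2 to 175 hits). Against the WT floor per nucleotide, Pol5-HTP was at least 30.3-fold higher at each nucleotide of the first run and at least 6.52-fold higher at each nucleotide of the last.

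The profiles of the libraries resembled each other in outline. Across the 420 nucleotides Pearson's r of WT and Pol5-HTP hits was 0.67 and Spearman's rho 0.80, a description only, since neighbouring nucleotides share reads and both libraries share the same RNA and RNases. In the first 280 nucleotides r and rho were 0.58 and 0.75, and in the 18S rRNA 0.82 and 0.81. Of the 5 largest rises of depth in each library, 2 were at the same nucleotide (472 and 619, 40% of each list), and of the 5 largest falls 1 was (515, 20%). The other large WT rises were at 420, 302 and 629, and the other WT falls at 662, 524 and 305.

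The base just before a rise is the one after which the added reads begin. RNace-IT, the mix used for trimming, holds RNase A, which cuts after pyrimidines, and RNase T1, which cuts after G. All 5 of the largest Pol5-HTP rises (396, 401, 410, 472 and 619) followed a C. Among the 5 largest WT rises, those at 472 and 619 followed a C, those at 302 and 629 a T, and that at 420 an A. Of all reads in rises, 55.7% began after C in Pol5-HTP and 35.8% in WT, while 16.9% of the positions follow a C. For T, the other pyrimidine, the shares were 15.6% and 26.1%, while 29.8% of the positions follow a T. For G they were 5.90% and 6.38%, while 23.6% of the positions follow a G. For A, which is not among these cutting bases, they were 22.8% in Pol5-HTP and 31.7% in WT, while 29.8% of the positions follow an A. In the first 280 nucleotides the shares after C were 33.2% in Pol5-HTP and 40.7% in WT. Whether trimming set the edges of the sites was not tested.

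**Figure D4:**
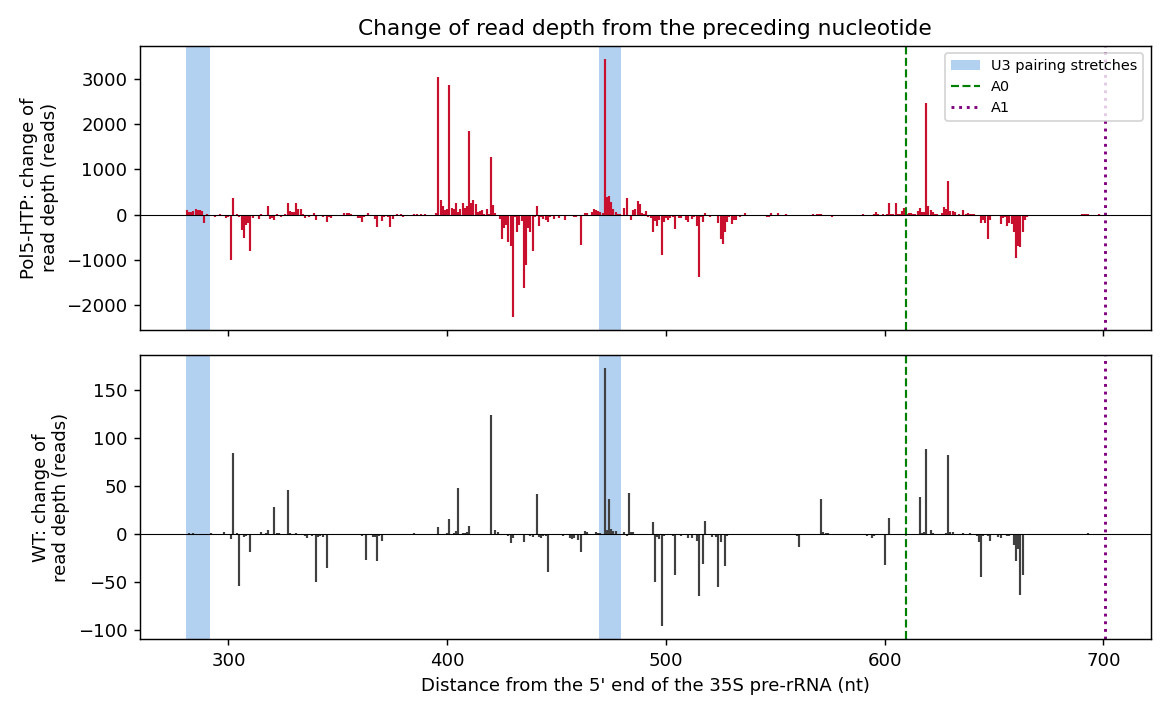
Change of read depth from the preceding nucleotide (y axis, reads) along the region (x axis) for Pol5-HTP above and WT below, on separate scales. Both have their largest rise at nucleotide 472, and the rises of Pol5-HTP at 396, 401 and 410 have small counterparts in WT.

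The pooled nucleotides of the sites also differed from the rest of the region in base composition. Inside the 150 nucleotides of the sites 65.3% of the bases were purines and 22.0% were T, against 46.3% and 34.4% outside, with 53.1% purines in the region and 53.3% in the 35S pre-rRNA. The purine share was uneven among the sites. It was 82.1% in the site at 619 to 657. In the sequences given above for 281 to 306 and 397 to 438, it was closer to that of the region than to the pooled share. The predicted share of paired bases differed less between inside and outside. In a minimum free energy fold of the whole 5′ ETS, 72.0% of the nucleotides inside sites and 69.3% outside were paired, and in a fold of nucleotides 281 to 700 alone 76.7% and 68.5%. These folds contain no proteins and no U3.

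At the cleavage sites the libraries behaved differently from each other at A1 but not at A0. Across A0, depth was 17 reads before and 17 after in WT, and 1007 and 1012 in Pol5-HTP, so neither library had a step there. From A0 to A1 the means were 198 hits in WT and 1382 hits in Pol5-HTP, a log2 ratio of 2.74 (2.56 to 2.92), with all 91 nucleotides at least 2 times WT. The 130 nucleotides from the 5′ hinge pairing to A0 had a log2 ratio of 2.32 (2.19 to 2.44), with 101 of them past the limit, and the 178 nucleotides between the pairing stretches 3.10 (2.98 to 3.22). By share of hits, WT had 41.9% and Pol5-HTP 51.7% between the pairing stretches, 31.0% and 22.2% from the 5′ hinge pairing to A0, and 18.1% and 17.5% from A0 to A1.

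Across A1, depth rose from 1 read on the last nucleotide of the spacer to 41 reads on the first nucleotide of the 18S rRNA in WT, and from 111 to 166 reads in Pol5-HTP. The depth before A1 was thus 2.44% (0.432 to 12.6) of that after it in WT and 66.9% (59.4 to 73.6) in Pol5-HTP. At least 40 WT reads thus began exactly at the mature 5′ end of the 18S rRNA. With means over 10 nt on each side the shares were 1.37% (0.8 and 58.2 reads) and 32.3% (111 and 344 reads), so that the size of the Pol5-HTP share depended on the span, and its being above WT did not. The other junctions where a spacer precedes a mature rRNA gave the same order by 10-nt means, with 6.36% in WT and 34.3% in Pol5-HTP from ITS1 to 5.8S rRNA and 15.3% and 45.0% from ITS2 to 25S rRNA.

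**Figure D5:**
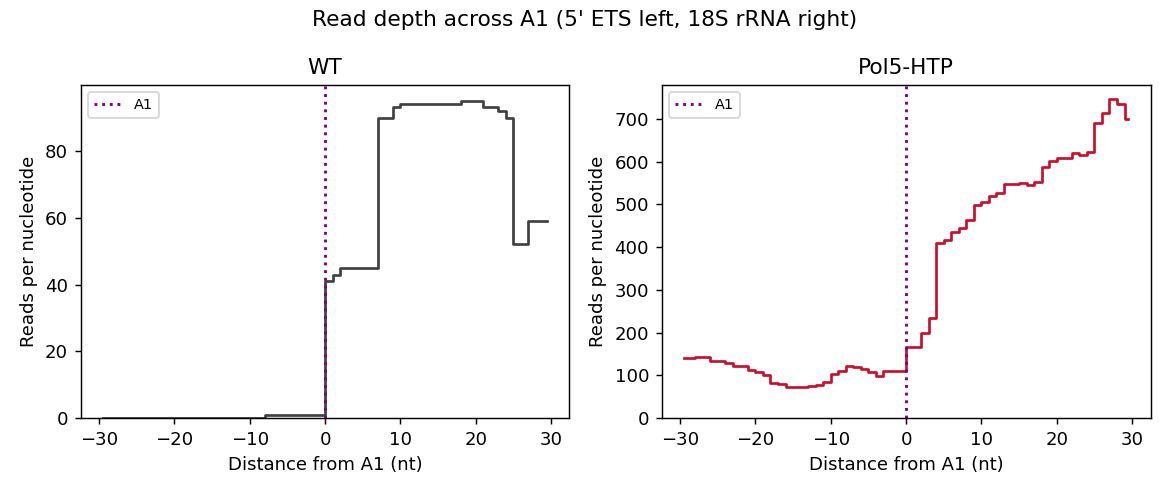
Reads at each nucleotide within 30 nt of A1 (x axis, distance from A1; y axis, reads, on separate scales) for WT (left) and Pol5-HTP (right). WT steps from 1 to 41 reads at A1, whereas Pol5-HTP has 111 reads on the last nucleotide of the spacer and 166 on the first of the 18S rRNA.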

How the data were processed

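Both libraries were made and sequenced by the authors. Identical sequences were collapsed, reads were trimmed and quality filtered with Flexbar, mapped with Bowtie 2 (Bowtie2 2.3.4.2 in the submitters' processing notes) and assigned to RNA classes with pyCRAC. The deposited class tables hold raw read counts. The deposited coverage signal holds hits per 1000000 mapped reads for every nucleotide of the 35S pre-rRNA, scaled by the authors. The genome build, and how reads matching several rDNA copies were placed, are not given in the sources used here, so no chromosome coordinates are printed.

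The 6862 listed positions held 4 repeats of boundary nucleotides. Each library's read total was recovered from the step between coverage values, which gave whole reads at 100% of positions within 0.01 read. Ratios, intervals (Wilson for shares), sites, depth changes and composition were computed with Python 3.11.15, numpy 2.4.6, pandas 2.3.3 and scipy 1.17.1, folds with ViennaRNA 2.7.2 and plots with matplotlib 3.10.9. Site calling, the recovery of read totals and the smallest number of reads were tested on simulated data. For site calling, these had strong planted sites on a flat background with nucleotides drawn independently, unlike the real profiles. Named stretches were every segment and site, maxima over 20% of the highest value, the 3 highest and lowest 20-nt windows and the 5 largest rises and falls; those at U3 pairing stretches, A0 and A1 follow known positions. Members, landmarks and rules were chosen with earlier results of these data known. Alternatives changed scaling, added value, mean or median, region edges and site threshold. Crosslink-induced mutations and the other experiments were not analysed here.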

Additional observations from a re-analysis of the deposited data

How the results depend on the processing

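The log2 ratio of the region was 2.80. It was 2.65 relative to all 35S hits, 4.66 with the class totals, 3.54 with the median ratio of the 18S rRNA set to 1, 2.42 with 100 hits added and 2.39 from medians, and it stayed within its interval or close to it with 1 or 0 hits added, with trimmed edges or without the site that runs in from nucleotide 237 (2.74 to 2.85). These scalings shift every log2 ratio by -0.15, 1.94 and 0.78 before any value is added. Of the 420 nucleotides, 336 to 418 were at least 2 times WT over the other scalings, added values and smoothing, while the share of the 35S pre-rRNA that passed ranged from 27.8% to 69.7%. Limits of 4 and 1.5 times WT gave 321 and 394, and among the 344 nucleotides with at least 3 reads in both libraries 315 passed. At a threshold of 30% of the maximum 1 site was left, at 413 to 428, in place of 4, and at 5% there were 3, with the sites at 397 and 472 merged. The Pol5-HTP share at A1 fell from 66.9% to 32.3% with 10-nt means, an alternative chosen after seeing the data. The run at 571 to 599 changed direction, from -0.18 to 1.501 with class totals and 0.49 with the 18S scaling, also chosen after seeing the data. The 18S rRNA, used for comparison, also turned, from -0.93 to 0.99 with class totals; alternatives for windows and comparison regions were likewise added after seeing the data. Of 112 alternatives for single stretches, windows and comparison regions, 109 kept the direction and the 3 others were these. Of the 109, 60 lay outside the interval of the main value and 49 within it. A change of the added value cannot turn the direction of a ratio of means. Those alternatives could therefore only move its size. The class totals and the 18S scaling raise every ratio, so they could not turn a positive one. Scaling to all 35S hits lowers a log2 ratio by only 0.15, less than most of those listed. The count also includes the 3′ ETS, which gave no ratio of use. The count of kept directions was thus largely set in advance and is no test of robustness. Ratios at the 52 nucleotides with 0 WT reads are limited by depth. The cause of these shifts was not tested beyond what the scaling itself sets. No paired analysis was possible because there was 1 library of WT and 1 of Pol5-HTP.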
